A study of Mus musculus with 7 samples.

Results

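The metalloproteases described here are the matrix metalloproteinases (Mmp genes), the membrane-bound ADAM proteases (Adam genes), the secreted ADAMTS proteases (Adamts genes) and their tissue inhibitors Timp1 to Timp4. Members were chosen by symbol alone: every gene of the array annotation whose symbol is Mmp, Adam or Adamts followed by a number, and the 4 Timp genes, without the Adamtsl genes. The rule found 65 of the 18193 genes with a probe set of their own: 18 MMPs, 28 ADAMs, 15 ADAMTS and 4 TIMPs. They were measured by 116 probe sets, and the probe set with the highest mean stood for each gene.

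The study profiled luminal cells of the mouse prostate, the secretory epithelium of the gland, on 7 Affymetrix expression arrays. WT cells (arrays A to C, n = 3) came from wild type mice. T-ETV1 cells (arrays A to D, n = 4) came from mice that carry a human ETV1 cDNA, encoding a transcription factor of the ETS family, driven by the mouse's own Tmprss2 promoter. Cells of both groups were sorted by surface proteins, carrying CD49f on the surface and lacking Sca1 and the lineage markers (Ter119, CD31 and CD45). The T-ETV1 cells were in addition gated as GFP positive, so genotype and GFP gate cannot be told apart. The labels name neither age nor strain. The series text speaks of biological replicates, and no label names the animals, so the tests measure the spread between these arrays.

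The Tmprss2 promoter responds to androgen and is active in luminal cells, and as a model the transgene reaches only cells in which that promoter is on. Median intensities per array ran from 48.5 on T-ETV1 A to 73.7 on WT C, and rank correlations between arrays over all genes lay between 0.916 and 0.966. The 8 measured of 10 luminal markers (Krt8, Krt18, Pbsn, Hoxb13, Tmprss2, Cd24a, Epcam and Msmb) summed to 66754 to 68528 intensity units on the WT arrays and 65007 to 71060 on the T-ETV1 arrays, and each of the 8 was present on every array. Markers of other cell types were far less even, above all on the C arrays, and their values stand beside the results they moved with. These are bulk samples, in which fewer cells of a type and less RNA per cell cannot be told apart.

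Metalloproteases cut proteins with the help of a zinc ion in the active site. MMPs degrade collagens and other matrix proteins, are made as inactive precursors, and are blocked by TIMPs, which bind the active site. ADAMs sit in the cell membrane and shed the outer parts of growth factor precursors and receptors, while ADAMTS proteases are secreted and bind the matrix, where several of them cut aggrecan and versican. In the prostate these enzymes are studied mostly for matrix turnover and invasion. ETS factors bind DNA at sites with a GGAA core, and many MMP promoters carry such sites beside sites for AP-1, the dimer of Fos and Jun proteins.

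Promoters of 6 members are shown because they include Mmp7, an MMP above the array median on every array, its weakly measured neighbours (Mmp3, Mmp13), and genes that were high on both C arrays (Mmp14, Adamts1, Timp3). Each is the 250 bases before the annotated start, 5′ to 3′ along the gene, from RefSeq on the build GRCm38.p6. Capitals mark GGAA, the core of ETS sites, and TGANTCA, an AP-1 site, on either strand, so that TTCC is the same core read on the other strand.
Mmp7 promoter, chr9:7691840-7692089, plus strand: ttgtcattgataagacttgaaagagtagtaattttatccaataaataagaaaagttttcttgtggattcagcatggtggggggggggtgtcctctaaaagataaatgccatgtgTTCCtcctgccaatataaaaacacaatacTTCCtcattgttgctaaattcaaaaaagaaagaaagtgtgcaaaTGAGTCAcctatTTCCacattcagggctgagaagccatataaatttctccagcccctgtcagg
Mmp3 promoter, chr9:7445572-7445821, plus strand: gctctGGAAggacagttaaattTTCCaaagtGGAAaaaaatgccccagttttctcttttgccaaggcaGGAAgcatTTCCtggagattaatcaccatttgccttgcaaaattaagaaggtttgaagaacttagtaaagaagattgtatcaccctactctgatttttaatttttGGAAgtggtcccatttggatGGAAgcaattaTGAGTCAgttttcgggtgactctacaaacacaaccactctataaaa
Mmp13 promoter, chr9:7272264-7272513, plus strand: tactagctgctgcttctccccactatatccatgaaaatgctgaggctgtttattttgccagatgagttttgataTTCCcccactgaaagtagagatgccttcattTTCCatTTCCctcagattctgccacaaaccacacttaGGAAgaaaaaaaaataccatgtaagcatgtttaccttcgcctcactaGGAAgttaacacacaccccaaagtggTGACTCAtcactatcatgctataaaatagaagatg
Mmp14 promoter, chr14:54431348-54431597, plus strand: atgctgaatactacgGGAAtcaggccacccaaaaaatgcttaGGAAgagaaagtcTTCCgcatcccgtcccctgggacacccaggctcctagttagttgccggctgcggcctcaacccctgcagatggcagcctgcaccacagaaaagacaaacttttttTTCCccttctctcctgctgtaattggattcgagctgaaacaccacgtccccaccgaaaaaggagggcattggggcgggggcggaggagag
Adamts1 promoter, chr16:85803114-85803363, minus strand: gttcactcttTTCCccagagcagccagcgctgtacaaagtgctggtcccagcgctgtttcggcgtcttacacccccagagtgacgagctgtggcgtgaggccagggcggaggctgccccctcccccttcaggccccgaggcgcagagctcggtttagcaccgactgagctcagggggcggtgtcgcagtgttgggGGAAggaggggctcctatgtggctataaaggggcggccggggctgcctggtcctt
Timp3 promoter, chr10:86300162-86300411, plus strand: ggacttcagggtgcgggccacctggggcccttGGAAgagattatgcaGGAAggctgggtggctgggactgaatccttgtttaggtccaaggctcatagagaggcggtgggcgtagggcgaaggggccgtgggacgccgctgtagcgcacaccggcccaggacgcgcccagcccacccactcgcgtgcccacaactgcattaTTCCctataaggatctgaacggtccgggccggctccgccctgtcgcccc

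The AP-1 motif begins 63 bases before the start in Mmp7, 46 in Mmp3 and 35 in Mmp13. It is not present in the windows shown of Mmp14, Adamts1 and Timp3. Of the 65 members 37 had a promoter in the table, in 42 windows, since some genes have more than 1 start. The motifs were searched on both strands. TGANTCA was in 10 of the 42 windows (23.8%), against 6.75% of all 32851 windows of that length. GGAA was in 36 of 42 (85.7%), against 93.45% of all windows, and the longer ETS site CCGGAAGT, which contains GGAA, was in 0 of 42, against 2.88%. A match is a stretch of letters and not a measured binding site.

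Of the 10 genes with the AP-1 motif, 8 lie in 1 cluster of 9 MMP genes on chromosome 9 (Mmp13, Mmp12, Mmp1b, Mmp3, Mmp1a, Mmp10, Mmp8, Mmp20 and Mmp7), and the other 2 are Adam19 and Adam25. These genes are related copies and neighbours, so their promoters are not separate observations. The cluster was split by level: Mmp7 was above the array median on all 7 arrays, Mmp12 was above it on 1 array, and the other 7 were below it on all 7, at intensities of 1.13 to 44.5. Mmp7, the matrilysin secreted by glandular epithelia, read 9086, 8722 and 9971 on WT A to C and 8602, 5485, 9798 and 6818 on T-ETV1 A to D. The groups overlapped, and T-ETV1 differed from WT by -0.30 ± 0.21 on the log2 scale (SE; limma adjusted p = 0.881).

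Low intensities were common in the family. On all 7 arrays 33 of the 65 members (50.8%) were below the median intensity of the array, against 30.1% of all genes. Another 14 were above it on every array: Mmp7, Mmp24, Adam9, Adam10, Adam15, Adam17, Adam22, Adam28, Adamts4, Adamts9 and the 4 TIMPs. The remaining 18 were above it on some arrays and below it on others. Differences are on the scale of log2(intensity + 16), which understates changes at low intensity.

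In T-ETV1 cells 49 of the 65 members had a lower mean than in WT and 16 a higher one, and the median log2 difference was -0.21, against -0.03 over all genes, of which 55.6% were lower. Without WT C, 42 were lower and the median was -0.08. With each array centred on its median, all genes shifted to a median of 0.11 and the members' median was -0.07, with 38 lower and 27 higher. After quantile normalization 44 members were lower and 21 higher. No member passed the limma test at an adjusted p of 0.05, and neither did any of the 18193 genes (0%), the smallest adjusted p being 0.758 among members and 0.485 among all genes.

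At an unadjusted p under 0.05, 3 members (4.62%) stood out, all lower in T-ETV1: Adamts5, Adamts4 and Adam17. Over all genes 4.12% were lower at that threshold, and 6.12% were past it in either direction, so the members' share was near the background. The 2 groups of arrays did not overlap for 1 member, Adamts5 (1.54%), against 6.32% of all genes. A fit with the replicate letter as a block leaves out T-ETV1 D, since no WT array has that letter. The labels do not say that the letters pair arrays. In it 7 members had an unadjusted p under 0.05 (Adam34, Adamts1, Adamts4, Adamts5, Adamts15, Mmp9 and Timp3; 10.8%), against 7.22% of all genes, and the smallest adjusted p was 0.353. Without T-ETV1 D and with no block the count was 4 (6.15%, against 4.45% of all genes), so the step from 3 to 7 joins both changes. Without WT C it was 2 (3.08%, against 5.38% of all genes), and without T-ETV1 C it was 12 (18.5%, against 9.84%).

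**Figure D1:**
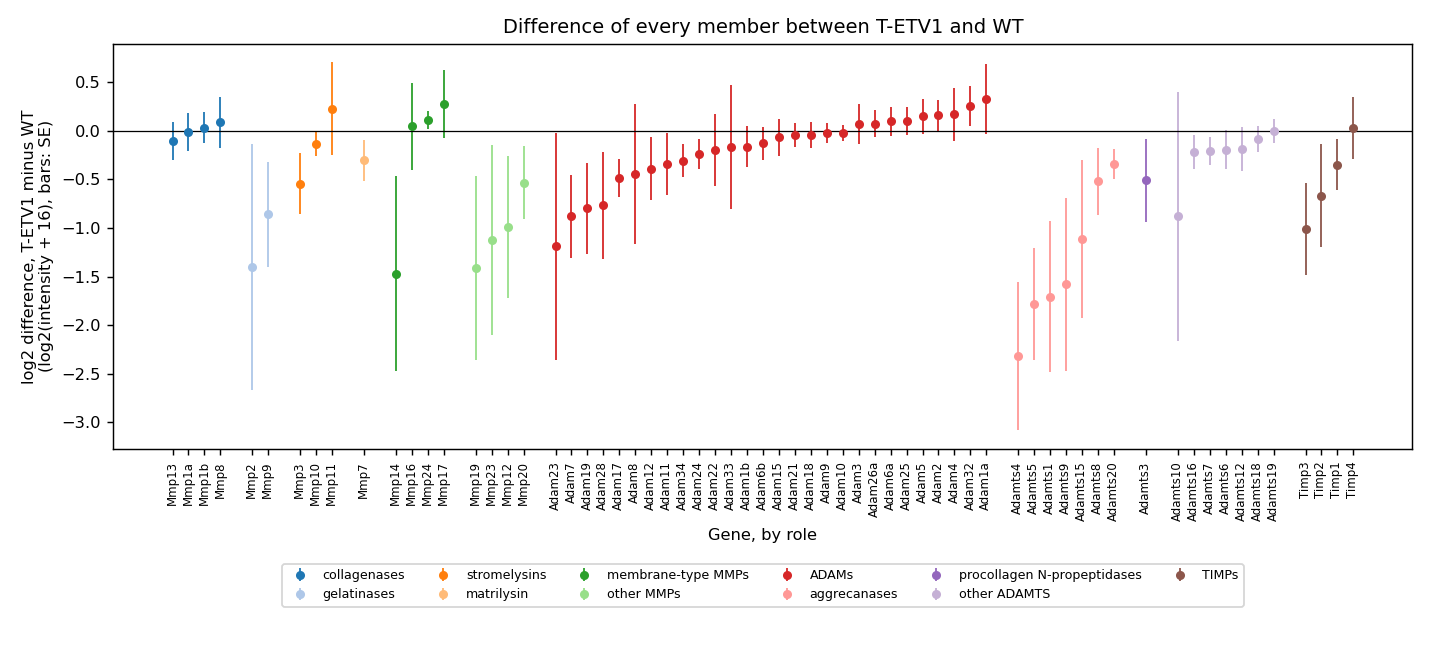
Log2 difference, T-ETV1 minus WT, of each of the 65 members on the scale of log2(intensity + 16), grouped by role and ordered within a role; points are the fitted differences and bars the SE (3 WT and 4 T-ETV1 arrays). All 7 aggrecanases lie below 0, from -2.32 (Adamts4) to -0.34 (Adamts20), while most ADAMs lie near 0.

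The ADAMTS proteases that cut aggrecan and versican (Adamts1, Adamts4, Adamts5, Adamts8, Adamts9, Adamts15 and Adamts20) had the lowest median difference of any role. All 7 were lower, with a median log2 difference of -1.58, and this count held with quantile normalization (median -1.46) and median centring (-1.44). It also held without WT C (-1.10) and without both C arrays (-1.35). None passed at the adjusted threshold.

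Adamts4, a main aggrecanase of cartilage and vessels, read 477, 782 and 2368 on WT A to C and 132, 194, 541 and 70.1 on T-ETV1 A to D. Every T-ETV1 array was below every WT array except T-ETV1 C, which lay above WT A. On the log2 scale the WT arrays averaged 9.94 ± 1.16 (SD, n = 3) and the T-ETV1 arrays 7.62 ± 1.13 (SD, n = 4), a difference of -2.32 ± 0.76 (SE; limma adjusted p = 0.758). The other probe set of the gene gave -2.24 ± 1.01.

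Within the letters the Adamts4 difference was nearly constant, at -1.74 between the A arrays, -1.93 between B and -2.10 between C. Without T-ETV1 D the difference was -1.92 ± 0.75 (SE; adjusted p = 0.999) with no block, and -1.92 ± 0.14 (SE; limma adjusted p = 0.353) with the letter as a block. Without WT C the difference was -1.68 ± 0.74 (adjusted p = 0.932).

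Adamts5, the other main aggrecanase, was weakly measured, below the array median on 6 of 7 arrays. It read 40.6, 38.3 and 215 on WT A to C and 8.89, 2.36, 27.7 and 6.65 on T-ETV1 A to D. The highest T-ETV1 array thus lay under the lowest WT array. The difference was -1.78 ± 0.57 (SE; limma adjusted p = 0.758), and it was -1.10 ± 0.35 without WT C (adjusted p = 0.800) and -1.35 ± 0.18 without both C arrays (adjusted p = 0.0826). Its other 3 probe sets were also lower in T-ETV1 on average (from -1.003 to -0.12), with groups that overlapped.

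Adamts1, an aggrecanase and versicanase that lies beside Adamts5 on chromosome 16, read 182, 194 and 688 on WT A to C and 22.4, 86.9, 284 and 51.2 on T-ETV1 A to D. Here too T-ETV1 C was the only T-ETV1 array above a WT array. The difference was -1.71 ± 0.78 (SE; adjusted p = 0.822), and -1.54 ± 0.32 with the letter as a block and without T-ETV1 D (limma adjusted p = 0.526).

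Adamts9, a versicanase, was the steadiest of the group in WT, at 699, 610 and 577 on arrays A to C. On T-ETV1 A, B and D it read 89.2, 93.2 and 129, and on T-ETV1 C 1267. That array was the highest of all 7, and it decided the comparison. Over all arrays the difference was -1.58 ± 0.89 (SE; adjusted p = 0.865). Without T-ETV1 C it was -2.44 ± 0.17 (limma adjusted p = 0.0216), and without both C arrays -2.50 ± 0.20 (adjusted p = 0.0314), past the threshold in either case.

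Without T-ETV1 C, 27 of the 18193 genes passed, and Adamts9 was the only member among them. The other 2 probe sets of Adamts9 read at most 99.1 and differed by -0.13 ± 0.59 and -0.11 ± 0.27 over all 7 arrays. The low value on T-ETV1 A, B and D is therefore that of 1 probe set.

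Adamts15, another aggrecanase, read 36.0, 108 and 228 on WT A to C and 7.49, 41.2, 165 and 18.4 on T-ETV1 A to D (-1.11 ± 0.81, adjusted p = 0.881). It was lower in T-ETV1 within each letter, by -1.15, -1.12 and -0.44. Adamts8 (11.1 to 59.7) and Adamts20 (2.05 to 16.5) were below the array median on all 7 arrays, at differences of -0.52 ± 0.35 and -0.34 ± 0.16.

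The other ADAMTS genes were mostly at low intensity: 6 of the 7 in this role, and Adamts3, were below the array median on every array. Adamts3, which trims the ends of procollagen, read 3.73, 1.81 and 45.5 on WT A to C and 1.92, 1.68, 4.52 and 6.41 on T-ETV1 A to D. Only WT C stood out, and without it the difference of -0.51 ± 0.43 turned to 0.06. The 15 ADAMTS genes were all lower in T-ETV1 (median -0.51), while 14 were lower after quantile normalization and 13 after median centring. Without WT C, 13 were lower and the median was -0.28.

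Adamts10, a matrix ADAMTS tied to fibrillin microfibrils, ranged over 4.63 log2 units on the 7 arrays. Its readings were 33.9, 33.8 and 196 on WT A to C and 5.68, 3.01, 454 and 3.04 on T-ETV1 A to D. The C array was the highest of each group by far, and the groups overlapped through it. The difference was -0.88 ± 1.28 (SE; adjusted p = 0.950) on all arrays and -1.33 ± 0.13 without both C arrays (limma adjusted p = 0.0477), where 68 of all genes passed. Its second probe set read 3.97 to 15.1 and differed by 0.16 ± 0.16.

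Among the dim ADAMTS genes the arrays showed no common order. Adamts7 read 4.45, 8.86 and 10.4 on WT A to C and 7.32, 2.99, 5.95 and 2.55 on T-ETV1 A to D (-0.21 ± 0.14). For Adamts16 the values were 9.97, 9.11 and 6.39 in WT and 1.01, 11.4, 3.22 and 5.82 in T-ETV1 (-0.22 ± 0.18). Adamts6 stood at 21.1, 34.99 and 39.6 in WT and 32.4, 26.99, 27.3 and 16.1 in T-ETV1 (-0.19 ± 0.20). All 3 overlapped between groups, and Adamts6 and Adamts16 each had a probe set of the opposite sign.

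**Figure D2:**
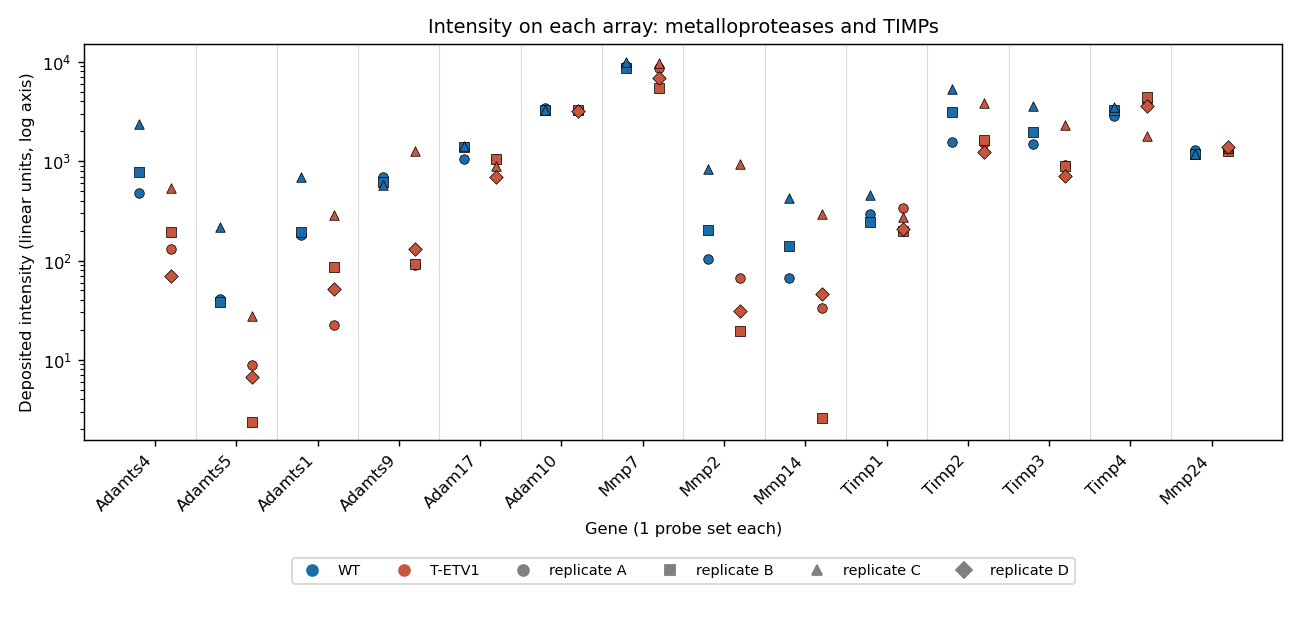
Deposited intensity of 14 members on each of the 7 arrays, on a log axis; blue points are WT, red points T-ETV1, and the shape gives the replicate letter. Adam10 and Mmp24 sit at 1 level on all arrays, Adamts9 is low on T-ETV1 A, B and D but reads 1267 on T-ETV1 C, and triangles (C arrays) are the highest of their group for Mmp2, Mmp14, Adamts1, Adamts4, Adamts5, Timp2 and Timp3.

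All 4 TIMPs were above the array median on every array, unlike most of the enzymes they inhibit. Of them 3 were lower and 1 was higher in T-ETV1, with a median of -0.51 (-0.45 after quantile normalization and -0.37 after median centring), and none passed the test. Without WT C the median was -0.17.

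Timp3, the inhibitor that binds the matrix and blocks ADAM17 and aggrecanases besides MMPs, read 1486, 1975 and 3591 on WT A to C and 925, 888, 2295 and 713 on T-ETV1 A to D. Within each group the C array was highest, and T-ETV1 C lay above WT A and WT B. On the log2 scale the WT arrays averaged 11.11 ± 0.65 (SD, n = 3) and the T-ETV1 arrays 10.10 ± 0.74 (SD, n = 4), a difference of -1.01 ± 0.47 (SE; adjusted p = 0.823).

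Within the letters Timp3 differed by -0.67, -1.14 and -0.64, and with the letter as a block and without T-ETV1 D by -0.82 ± 0.17 (limma adjusted p = 0.525). The other 3 probe sets of Timp3 had the same sign, at -1.15 ± 0.36, -0.78 ± 0.40 and -0.73 ± 0.52. Timp3 and the aggrecanases Adamts4 and Adamts5 were thus all lower in T-ETV1 within every letter.

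Timp2, which also takes part in the activation of pro-MMP2 by MMP14, read 1548, 3109 and 5393 on WT A to C and 1528, 1650 and 3855 on T-ETV1 A to C, with 1229 on T-ETV1 D. The groups overlapped, with a difference of -0.67 ± 0.53 (SE; adjusted p = 0.894). Its 6 probe sets were all lower in T-ETV1 on average, from -1.08 to -0.04.

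Timp1, an inhibitor induced in many tissues by growth factors, read 291, 247 and 454 on WT A to C and 339.5, 199, 271 and 206 on T-ETV1 A to D (-0.35 ± 0.27, adjusted p = 0.885). Timp4 was the only TIMP with a higher mean in T-ETV1 (0.03 ± 0.32, adjusted p = 0.995), and this sign turned with the mean of its 2 probe sets (-0.01). It read 2859, 3298 and 3506 on WT A to C and 3949, 4474, 1813 and 3590.1 on T-ETV1 A to D. In contrast to Timp2 and Timp3, its lowest value was on T-ETV1 C.

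The gelatinases Mmp2 and Mmp9, which cut denatured collagen and basement membrane collagen, followed the C arrays. Mmp2, typically a product of fibroblasts, read 103, 204 and 839 on WT A to C and 66.1, 19.4, 933 and 30.8 on T-ETV1 A to D. T-ETV1 C was the highest of all 7 arrays, and T-ETV1 A, B and D were all lower than every WT array. The difference was -1.40 ± 1.27 (SE; adjusted p = 0.912), which is about the spread within the groups. The second Mmp2 probe set gave -1.10 ± 1.22.

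Mmp9, typically a product of myeloid cells, read 44.4, 46.5 and 169 on WT A to C and 32.5, 24.1, 82.1 and 13.9 on T-ETV1 A to D (-0.86 ± 0.54, adjusted p = 0.876). Within the letters it was lower in T-ETV1 each time (-0.32, -0.64 and -0.91). T-ETV1 C again overlapped with the WT arrays.

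Of the 4 membrane-type MMPs, 1 was lower and 3 were higher in T-ETV1, under each of the 3 scalings. Mmp14, the activator of pro-MMP2 at the cell surface, was the lower one and read 67.2, 141 and 422 on WT A to C and 33.3, 2.59, 291 and 45.8 on T-ETV1 A to D. Its difference was -1.47 ± 1.001 (SE; adjusted p = 0.881), with the same sign in its other 2 probe sets (-1.11 and -1.22). Mmp14 and its substrate Mmp2 both had the C array first in each group. Of all 7 arrays, WT C was the highest for Mmp14 and T-ETV1 C for Mmp2.

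Mmp24, a membrane-type MMP described mainly in nerve cells, behaved unlike Mmp14. It read 1309, 1182 and 1194 on WT A to C and 1310.3, 1271, 1353 and 1383 on T-ETV1 A to D. No array stood out, and the difference was 0.11 ± 0.09 (SE; adjusted p = 0.906). Mmp17 read 18.9, 23.2 and 17.7 on WT A to C and 22.7, 18.7, 68.6 and 15.2 on T-ETV1 A to D, so that its difference of 0.28 ± 0.35 turned to -0.05 without T-ETV1 C.

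Collagenases, the enzymes that open fibrillar collagen, were below the array median on all 7 arrays, all 4 of them. Mmp13 read 6.12, 7.35 and 7.89 on WT A to C and 8.02, 2.40, 12.5 and 1.13 on T-ETV1 A to D. For Mmp8, the neutrophil collagenase, the values were 5.42, 8.54 and 8.48 in WT and 14.2, 4.52, 19.5 and 1.48 in T-ETV1. Mmp1b stood at 4.05, 8.21 and 2.59 in WT and 2.87, 7.51, 8.61 and 2.76 in T-ETV1. At such levels the arrays separate nothing, and the differences (-0.10, 0.09 and 0.03) were smaller than their SE (0.19, 0.26 and 0.16).

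The stromelysins Mmp3, Mmp10 and Mmp11 were also below the array median throughout. Mmp3, a stromelysin made largely by stromal cells, read 16.2, 21.2 and 44.2 on WT A to C and 10.6, 28.6, 8.83 and 6.53 on T-ETV1 A to D (-0.54 ± 0.31, adjusted p = 0.865). Mmp11 read 9.09, 9.54 and 54.6 in WT and 33.6, 28.9, 42.9 and 7.05 in T-ETV1 (0.23 ± 0.48). Mmp10 read 1.55, 5.64 and 6.78 in WT and 2.99, 2.25, 4.23 and 1.37 in T-ETV1 (-0.14 ± 0.13). WT C was the highest of the 7 arrays for each of the 3.

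Mmp12, Mmp19 and Mmp23 were highest by far on WT C. Mmp12, the macrophage elastase, read 147 there and 1.72 to 6.47 on the other 6 arrays. Mmp19, a broad matrix protease, read 9.30, 48.3 and 426 on WT A to C and 10.2, 6.25, 46.1 and 19.5 on T-ETV1 A to D. Mmp23 read 13.4, 104 and 509.5 in WT and 9.20, 69.2, 34.9 and 75.6 in T-ETV1. The group differences (-0.99 ± 0.73, -1.41 ± 0.94 and -1.12 ± 0.98) all had WT C as the highest array, and without it they were 0.0029, -0.26 and -0.075.

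Mmp20, the enamelysin of teeth, stayed below the array median throughout, at 35.4, 34.3 and 39.3 on WT A to C and 32.5, 11.5, 44.5 and 5.08 on T-ETV1 A to D (-0.53 ± 0.37, adjusted p = 0.881). T-ETV1 A and C were close to the WT arrays, while B and D were lower.

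ADAMs were the largest role group. Of 28 members, 19 were lower and 9 higher in T-ETV1, with a median difference of -0.10, which turned to 0.04 with 13 lower after median centring. Without WT C, 14 of the 28 were lower and the median was -0.00077. Of the 28, 15 were below the array median on all 7 arrays. Many of these are ADAMs of the testis and sperm: Adam1a, Adam1b, Adam2, Adam3, Adam5, Adam6a, Adam6b, Adam18, Adam21, Adam24, Adam25, Adam26a, Adam32 and Adam34, which read at most 36.2.

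Adam10, the main sheddase of Notch receptors and cadherins, was the steadiest member. It read 3409, 3282 and 3314 on WT A to C and 3246, 3309, 3390 and 3183 on T-ETV1 A to D. The whole range over the 7 arrays was 0.10 log2 units, and the difference was -0.02 ± 0.09 (SE; adjusted p = 0.986). Its other 3 probe sets, at lower intensities, were less even and lower in T-ETV1, at -0.73 ± 0.28 (unadjusted p under 0.05), -0.44 ± 0.45 and -0.41 ± 0.28. The steadiness is therefore that of the probe set with the highest signal.

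Adam17, the sheddase of TNF and of several EGF receptor ligands, read 1050, 1403 and 1430.3 on WT A to C and 1045, 1055, 900.4 and 696 on T-ETV1 A to D. WT B and WT C lay above all T-ETV1 arrays, and WT A lay within them. The difference was -0.48 ± 0.19 (SE; limma adjusted p = 0.804), and -0.35 ± 0.21 after median centring. Within the letters it was -0.01, -0.41 and -0.66. The other 2 probe sets gave -0.26 ± 0.24 and -0.27 ± 0.31.

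Adam9 and Adam15, sheddases widely expressed in epithelia, were chosen for naming after their values were seen, as were Adam8, Adam22, Adam28, Adamts9 and Adamts15. Adam9 read 2184, 2059 and 2257 on WT A to C and 2336, 2171, 2097 and 1932 on T-ETV1 A to D (-0.02 ± 0.11). Adam15 read 1160.0, 1319 and 1619 on WT A to C and 1402, 1486, 1358 and 976 on T-ETV1 A to D (-0.07 ± 0.19). T-ETV1 arrays lay on either side of the WT arrays for Adam9, while for Adam15 T-ETV1 A, B and C lay within the WT range and T-ETV1 D below it. In both genes the sign of the difference turned after median centring (0.11 and 0.07).

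Adam28 and Adam7, neighbours on chromosome 14, were uneven in another way. Adam28 read 848, 444 and 493 on WT A to C and 554, 117, 556 and 309.6 on T-ETV1 A to D (-0.77 ± 0.56, adjusted p = 0.881). Adam7, known from the epididymis, read 168, 49.6 and 45.5 on WT A to C and 27.4, 47.4, 20.2 and 43.0 on T-ETV1 A to D (-0.88 ± 0.43, adjusted p = 0.835). In both genes WT A was the highest of the 7 arrays, unlike the members that peaked on WT C.

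Adam23 and Adam22, which lack protease activity and bind Lgi proteins and integrins, went opposite ways on T-ETV1 C. Adam23 read 205, 348 and 720 on WT A to C and 57.3, 18.3, 895 and 359 on T-ETV1 A to D (-1.19 ± 1.17, adjusted p = 0.919). Adam22 read 325, 229 and 489 on WT A to C and 363, 353, 154 and 339 on T-ETV1 A to D (-0.20 ± 0.37, adjusted p = 0.964). T-ETV1 C was thus the highest array for Adam23 and the lowest for Adam22.

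Adam8, an ADAM of leukocytes, read 9.26, 17.8 and 162 on WT A to C and 7.90, 16.6, 51.9 and 28.3 on T-ETV1 A to D. The C array was again the highest of each group, and the difference of -0.45 ± 0.72 turned to 0.42 without WT C. Adam34, of the testis group, read 9.60, 7.89 and 7.34 in WT and 2.14, 1.24, 2.05 and 10.2 in T-ETV1 (-0.31 ± 0.17, adjusted p = 0.859).

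The C arrays set much of the variation in the family. WT C was the highest of the 7 arrays for 28 of the 65 members (43.1%), against 24.2% of all genes. It exceeded the mean of WT A and B by at least 1 log2 unit for 19 members (29.2%), against 10.5% of all genes. T-ETV1 C exceeded the mean of the other T-ETV1 arrays by as much for 16 members (24.6%), against 8.60% of all genes. The limit of 1 log2 unit was chosen after the values were seen.

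Both held for 14 members (21.5%), against 4.38% of all genes: Mmp2, Mmp9, Mmp14, Mmp19, Adam8, Adam23, Adam33, Adamts1, Adamts4, Adamts5, Adamts10, Adamts15, Timp2 and Timp3. They include 5 of 15 ADAMTS genes, 4 of 18 MMPs, 3 of 28 ADAMs and 2 of 4 TIMPs. Among these 14 the excess of T-ETV1 C was largest for Adamts10 (4.56 units, against 2.09 for WT C) and Mmp2 (4.21, against 2.40), and that of WT C for Mmp19 (3.45, against 1.18 for T-ETV1 C). Without WT C the group differences were -0.60 for Mmp2, -0.33 for Mmp9, -0.82 for Mmp14, -0.24 for Timp2, -0.66 for Timp3, -1.11 for Adamts1 and -0.58 for Adamts15. On WT C and T-ETV1 C in turn the excess was 1.93 and 2.004 for Adamts4 and 1.06 and 1.44 for Timp3.

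Other members were high on 1 C array alone. Mmp12 (2.98), Mmp23 (3.15) and Adam19 (1.81) exceeded the other WT arrays on WT C and not on T-ETV1 C, where the differences were 0.01, -0.19 and -0.27. Adamts9 was the reverse, at -0.17 on WT C and 3.43 on T-ETV1 C. Timp4 (-1.13) and Adam22 (-1.12) were lower on T-ETV1 C than on the rest of the group.

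**Figure D3:**
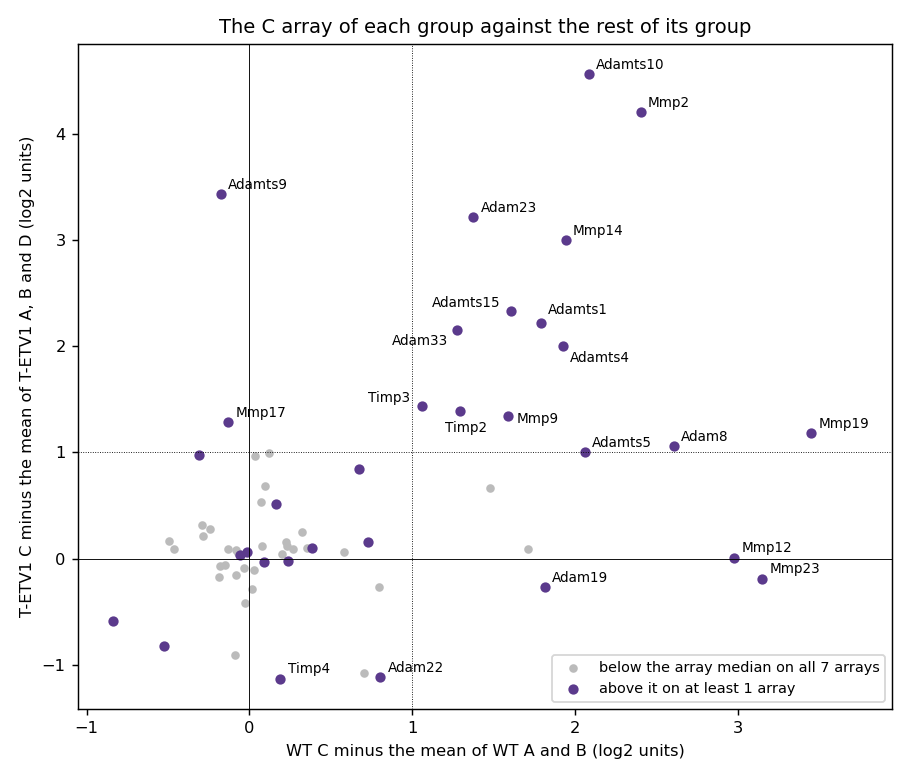
Position of the C array of each group against the rest of its group for all 65 members, in log2 units (WT C minus the mean of WT A and B across, T-ETV1 C minus the mean of T-ETV1 A, B and D upward); dotted lines mark 1 unit. The 14 members beyond both lines are all above the array median on at least 1 array, and no gene below it on all 7 arrays (grey) lies beyond both lines. A high C array can itself lift a gene above the median, as WT C did for Adamts5 and T-ETV1 C for Adam33. The split by level is therefore not separate from the positions shown.

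Markers of cell types other than luminal cells moved with these members. All 8 basal markers were lower in T-ETV1, with summed intensities of 8543, 15296 and 21951 on WT A to C and 3550.0, 4393, 20176 and 4848 on T-ETV1 A to D. The 8 fibroblast markers summed to 5769, 8920.5 and 27794 in WT and 3103, 2104, 9375 and 3202 in T-ETV1, and all 8 were lower. In both lists the C array was the highest of its group, as it was for Mmp2, Mmp14 and Timp2.

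The 8 endothelial markers were all lower as well, at sums of 1753, 2119 and 4237 in WT and 896, 519.8, 2403 and 892 in T-ETV1. Smooth muscle markers (7 of 7 lower) summed to 552, 1470 and 5539 in WT and 156, 235, 814 and 122 in T-ETV1. Endothelial cells, fibroblasts and smooth muscle cells are known sources of Adamts1, Adamts4, Adamts5 and Adamts9. The part of these cells in the low ADAMTS and TIMP values of T-ETV1 cells was not tested.

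Leukocyte markers set WT C apart most. The 8 macrophage markers summed to 415, 840 and 16067 on WT A to C and 707, 808, 9163 and 639 on T-ETV1 A to D, with 7 of 8 lower. Mast cell markers (6 of 6 lower) summed to 7809 on WT C and to 48.6 to 100.4 on all other arrays, and the 7 lymphocyte markers measured of 8 to 1908 on WT C and 49.5 to 289 elsewhere, with 5 of 7 lower. Mmp12, Mmp9 and Adam8 are known from macrophages and other myeloid cells, and the part of such cells in their WT C values was not tested.

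The markers at an intensity of at most 1 on some array were Cdh5 (on T-ETV1 D), Cnn1 (on WT A) and Adgre1 (on T-ETV1 B). The C arrays are thus those with the highest sums of macrophage, fibroblast, basal, endothelial and smooth muscle markers in each group, and the luminal sum was even. Bright genes weigh most in such sums, but the mean log2 deviation of each of these lists was also highest on the C array of its group. Single markers could differ. Plvap was lowest of all 7 arrays on T-ETV1 C (6.43), and Col1a1 read 139 on T-ETV1 C and 316 on T-ETV1 D. Without both C arrays, 9 members had an unadjusted limma p under 0.05, all lower in T-ETV1 (Adamts1, Adamts4, Adamts5, Adamts9, Adamts10, Mmp2, Mmp9, Mmp14 and Timp3). That is 13.8% of members, against 9.42% of all genes in the same fit. The groups did not overlap for 18 members (27.7%), against 26.0% of all genes with the 5 arrays left.

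**Figure D4:**
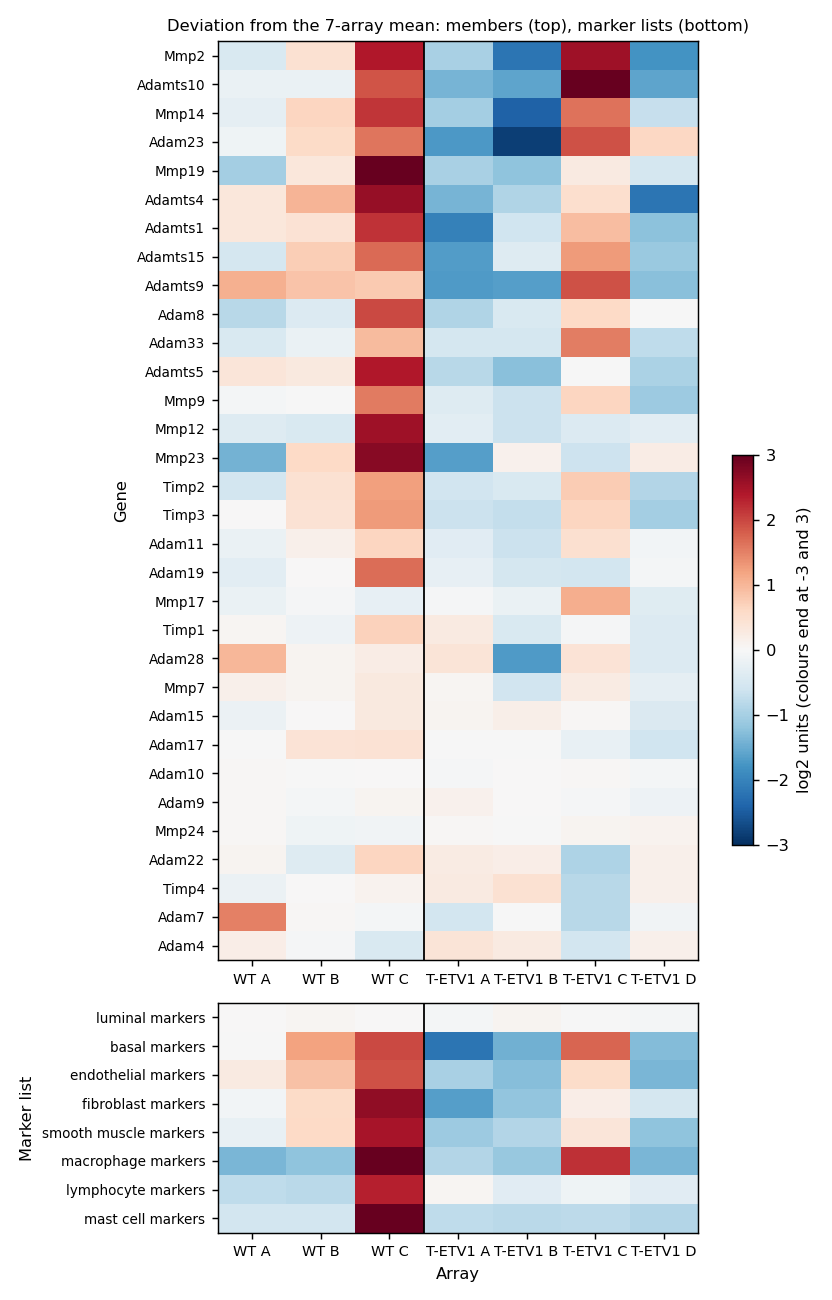
Deviation of each array from the 7-array mean in log2 units (colours end at -3 and 3) for the 32 members above the array median on at least 1 array, and below them the mean deviation of each marker list. WT C and T-ETV1 C are both red for Mmp2, Mmp14, Adamts10 and Adamts15 and for the basal and macrophage lists, the mast cell and lymphocyte lists are red on WT C alone, and Adam9, Adam10, Mmp24 and the luminal list stay near white.

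Compared by letter, 19 members (29.2%) were lower in T-ETV1 than in WT within each of the letters A, B and C, against 16.7% of all genes. They comprised 7 ADAMTS genes (Adamts1, Adamts3, Adamts4, Adamts5, Adamts15, Adamts18 and Adamts20), 6 ADAMs (Adam7, Adam8, Adam11, Adam17, Adam24 and Adam34), 4 MMPs (Mmp7, Mmp9, Mmp14 and Mmp23) and 2 TIMPs (Timp2 and Timp3). Comparing within letters sets the high C arrays against each other. Of the 19, Adamts4 had 3 differences within 0.36 units of each other, while those of Mmp23 ran from -0.22 to -3.37. Such evenness was not particular to Adamts4, since the differences of the dim Adam34 ran from -0.37 to -0.50.

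Genes that act with the metalloproteases were described from a list of 65, of which 60 were measured. Of these 39 were lower and 21 higher in T-ETV1 (median -0.09), none passed the adjusted threshold, and 6 had an unadjusted p under 0.05, all lower. Over all genes 55.6% were lower, with a median of -0.03. At that unadjusted threshold 4.12% of all genes were lower, and 6.12% were past it in either direction. The inhibitors and clearance receptors other than TIMPs were all 7 lower (median -0.57). Reck, a membrane-anchored inhibitor of MMPs, read 31.2, 79.6 and 376 on WT A to C and 20.8, 21.2, 21.6 and 29.9 on T-ETV1 A to D (-1.62 ± 0.66, limma adjusted p = 0.804). Every T-ETV1 array lay under every WT array, the closest pair being WT A and T-ETV1 D. WT C carried much of the difference, which was -0.78 ± 0.30 without that array.

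Among the same inhibitors, Spock3, a secreted proteoglycan, was dim and lower (-0.57 ± 0.17, limma adjusted p = 0.731). The activators were 7 lower and 4 higher (median -0.02). Furin, the convertase that cuts the precursors of membrane-type MMPs and ADAMs, differed by 0.05 ± 0.10, and Plat, the tissue plasminogen activator, by -1.10 ± 0.86. Pcsk5, another convertase, read 338 on T-ETV1 C and 4.06 to 12.7 on the other T-ETV1 arrays, against 30.6, 126 and 188 in WT (-1.24 ± 1.11).

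Of the plasminogen activator inhibitors only Serpinb2 was analysed here, at 60.0 on WT C, 279 on T-ETV1 C and 1.96 to 4.02 on the other 5 arrays (0.35 ± 1.12). Bsg, the surface protein that induces MMPs in neighbouring cells, was even at 4946 to 5733 (-0.07 ± 0.10). The 3 partners that ADAM17 needs to mature and reach the surface (Rhbdf1, Rhbdf2 and Frmd8) were all lower (-0.27 ± 0.25, -0.11 ± 0.51 and -0.35 ± 0.20), with none past the test.

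The tetraspanins that guide ADAM10 were 4 lower and 2 higher. Tspan15, the partner that directs ADAM10 to cadherins, read 760, 678 and 736 on WT A to C and 584, 573, 523 and 621 on T-ETV1 A to D. The groups did not overlap, and the difference was small, at -0.33 ± 0.10 (SE; limma adjusted p = 0.758). Tspan17 read 569.8 on T-ETV1 C and 87.5 to 99.5 on the other T-ETV1 arrays (0.78 ± 0.64).

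Substrates of ADAM10 and ADAM17 were 5 lower and 9 higher (median 0.06). The TNF receptor Tnfrsf1b, with an unadjusted p under 0.05, read 69.4, 64.6 and 249 on WT A to C and 6.48, 56.5, 34.7 and 5.81 on T-ETV1 A to D (-1.74 ± 0.61, limma adjusted p = 0.772). Of its 2 probe sets 1 had the opposite sign. Ereg, a ligand of the EGF receptor, read 255 on T-ETV1 C and 108 on T-ETV1 D but at most 15.4 on the other arrays (1.41 ± 1.03). Cdh1, Egf and Notch1 differed by 0.07 ± 0.12, 0.0014 ± 0.11 and 0.08 ± 0.20.

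Of the ADAMTS substrates 4 of 5 were lower (median -0.86). Vwf, the clotting protein of endothelium, read 74.5, 89.5 and 750 on WT A to C and 16.3, 12.6, 76.6 and 13.3 on T-ETV1 A to D (-2.29 ± 0.84, limma adjusted p = 0.784). T-ETV1 C alone overlapped with WT. Without WT C the difference was -1.30, and without both C arrays Vwf passed the threshold (-1.70 ± 0.14, adjusted p = 0.0345). Vcan, the proteoglycan cut by Adamts1, Adamts4, Adamts5 and Adamts9, read 1.89, 90.2 and 488 on WT A to C and 3.30, 5.55, 294 and 4.72 on T-ETV1 A to D (-1.28 ± 1.43). Of the 8 probe sets of Vcan 3 had the opposite sign. Bcan differed by -0.86 ± 0.49, and the astacin proteases Bmp1 and Mep1a by -0.36 ± 0.19 and -0.37 ± 0.26.

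Transcription factors known to act on MMP promoters were 5 lower and 2 higher, and Etv1 and Runx2 were not analysed here. Etv4, an ETS factor of the same subfamily as ETV1, read 336, 269 and 325 on WT A to C and 20.4, 7.78, 195 and 70.4 on T-ETV1 A to D (-2.36 ± 0.72, limma adjusted p = 0.741). Its groups did not overlap. Ets1, an ETS factor of stroma and lymphocytes, differed by -1.74 ± 1.06. The AP-1 genes Fos and Jun differed by -0.05 ± 0.16 and -0.04 ± 0.19, and Ets2 by 0.02 ± 0.11.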

How the data were processed

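The authors deposited 1 intensity per probe set and array on a linear scale, 45037 probe sets in all. How probes were summarised and the deposited intensities scaled is not given in the sources used here. Per the labels' protocols, sorted cells were lysed in Trizol and their RNA was amplified with a NuGEN kit. All 7 arrays were used. Values were transformed as log2(intensity + 16). Probe sets were named from the platform annotation, where 34945 had 1 gene, 932 several and 9160 none listed. For 34741 of the 34945 the symbol was taken by Entrez ID from the GRCm38.p6 names, whether or not it changed. Probe sets with several genes were left out, among them 5 with a member symbol. The probe set with the highest mean log2 value stood for a gene. Of 30 members with several probe sets 12 had a probe set of opposite sign. So did the partners Tnfrsf1b, Vcan, Tspan17, Notch1, Mep1a and Ets2 among those named.

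The comparison used limma (version 3.58.1, under R version 4.3.3, with lmFit and eBayes, two-sided) on all 18193 genes, with Benjamini-Hochberg adjustment and a threshold of 0.05, after a check on simulated data. Letters A to C met the limit set for pairing (0.1): deviations from the group means correlated at 0.281, 0.217 and 0.356. WT A and T-ETV1 D, of different letters, also met it at 0.187. The rule therefore does not show that the letters pair arrays. The letters are those of the labels, which say nothing on pairing. Alternatives were other scalings, pseudocounts, a filter, probe set means, single probe sets, eBayes with a trend, array weights, the block (arrays A to C alone, without T-ETV1 D) and leaving out arrays. Members, lists and rules were chosen with earlier results of these data known. Values on every array are given for the TIMPs, Mmp2, Mmp7, Mmp9, Mmp14, Adam10, Adam17, up to 3 members per role with the smallest p, members without overlap and the 8 with the widest range. Of partners, those with an unadjusted p under 0.05 and the 2 smallest p of each list are named. Furin, Rhbdf2, Cdh1, Egf, Notch1, Vcan, Fos, Jun and Ets2 were added after their values were seen. A planned split of ADAMs by catalytic motif needs protein sequences not used here. For 28 members, among them Mmp2, Adamts4 and Adamts5, no promoter was used. Promoters and motif shares are from RefSeq sequences of GRCm38.p6.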

Additional observations from a re-analysis of the deposited data

Results flagged for a closer look

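Of 58 named genes, 9 had 1 T-ETV1 array whose gap to the nearest of the other 3 was over the limit of a test for a far value, on the log2 scale. For genes chosen without regard to their values, chance alone gives such a gap in about 1 in 20. Some of the 58 were named for a wide range or after their values were seen, so 9 cannot be set against that rate. The WT group of 3 was too small for the test. In 7 of the 9 the far array was T-ETV1 C. Among members it was high there for Adamts10 (8.88, next 4.44) and Adamts9 (10.3, next 7.18) and low for Adam22 (7.41, next 8.47). Among genes acting with them it was high for Pcsk5 (8.47, next 4.84), Serpinb2 (8.20, next 4.32), Tspan17 (9.19, next 6.85) and Vwf (6.53, next 5.01). T-ETV1 D was high for Adam34 (4.71, next 4.18), which is below the array median, and for Reck (5.52, next 5.23), where the gap is small in absolute terms.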

How the results depend on the processing

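Depth is not known for arrays, and their number (3 and 4) limits the precision. The count of members past the adjusted threshold was 0 with each alternative except without T-ETV1 C (1, Adamts9) and without both C arrays (2, Adamts9 and Adamts10), and Vwf passed in the latter. Members with an unadjusted p under 0.05 numbered 3 (4.62%, against 6.12% of all genes), but 10 with array weights (15.4%, against 12.9%). They numbered 7 with the replicate block, which also leaves out T-ETV1 D (10.8%, against 7.22%), and 9 without both C arrays (13.8%, against 9.42%). Leaving out 1 array gave 2 (without WT B or C) to 12 (without T-ETV1 C, 18.5%, against 9.84%). Of the 116 member probe sets taken singly, 6 were under that p. The share over all probe sets was not counted. Members whose groups did not overlap numbered 1 (1.54%, against 6.32% of all genes), but 3 after quantile normalization (4.62%, against 6.49%), 2 after median centring (3.08%, against 6.75%), 3 with probe set means (4.62%, against 6.54%), 5 among the arrays of the replicate block (7.69%, against 9.06%) and 18 without both C arrays (27.7%, against 26.0%). Without 1 array they numbered 1 to 14, the most without T-ETV1 C (21.5%, against 15.98%), followed by 12 without WT A (18.5%, against 14.6%). Passing the adjusted threshold ranged from 0 to 1 member there. The members' median was -0.60 without the lowest 30% of genes (32 members left). Of 970 alternative values of 58 named genes, 915 kept their sign and side of the threshold, 51 in 16 genes turned sign and 4 newly passed. The block changed no call. Turned signs were 0.00026 (Adam10) and 0.014 (Adam9) after quantile normalization, and 0.035 (Mmp13), 0.00041 (Mmp10), 0.11 (Adam10), 0.068 (Adam15), 0.11 (Adam9) and 0.066 (Bsg) after median centring. They were -0.046 (Mmp8) with a pseudocount of 1, -0.014 (Timp4) with probe set means, -0.16 (Mmp1b), -0.011 (Mmp8), 0.22 (Adam22) and 0.018 (Adam9) with array weights, and 0.0092 (Mmp13), 0.063 (Adam15), 0.022 (Adam9) and -0.015 (Timp4) with the replicate block, where leaving out T-ETV1 D without the block gave the same values. Without both C arrays they were -0.12 (Mmp1b), -0.051 (Mmp8), -0.089 (Mmp17), 0.0012 (Mmp12), 0.034 (Adam15), 0.35 (Adam22), 0.16 (Adam8), 0.013 (Adam9) and 0.036 (Adamts3). Leaving out 1 array gave ranges across 0 for Adam15 (-0.18 to 0.063), Adam22 (-0.45 to 0.078), Adam8 (-0.99 to 0.42), Adam9 (-0.068 to 0.022), Adamts3 (-0.83 to 0.060), Mmp11 (-0.026 to 0.72), Mmp12 (-1.50 to 0.0029), Mmp13 (-0.23 to 0.0092), Mmp17 (-0.045 to 0.43), Mmp1b (-0.051 to 0.14), Mmp8 (-0.082 to 0.26), Serpinb2 (-0.63 to 1.03) and Timp4 (-0.12 to 0.31). The causes were not tested, save that fewer arrays overlap less often by construction.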
